A study of Mus musculus with 36 samples.

Results

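Of the 120754 autosomal bins of 20 kb that carried a replication timing (RT) state in 3 maps, 3459 (2.86%) were middle-replicating in shLacZ CH12 cells, early-replicating in WT primary B cells, and late or middle-replicating in mouse embryonic fibroblasts (MEFs). These bins are called primary B-early bins here. They were selected on the RT states of the 3 maps, so that their states are a description and were not tested. Adjacent bins were joined, which gave 431 runs covering 69.2 Mb. "Early only in primary B" holds among these 3 maps and says nothing of other cell types. The runs include heavy chain D and J segments with *Ighm*, the kappa J segments with *Igkc*, *Mef2c*, *Cr2*, *Fcer2a*, *Bcl2* and the microRNA genes *Mir155* and *Mir146*. These are examples, and most listed B cell genes started elsewhere. Of 37 B cell transcription factor genes, 1 started in such a bin (2.70%), against 3.38% of all autosomal protein-coding genes. Of 51 B cell receptor, surface and signalling genes, 3 did (5.88%).

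The series measured RT by Repli-seq, in which dividing cells take up BrdU, cells of early and late S phase are sorted, and the labelled DNA of each fraction is sequenced. It held 36 libraries in 7 groups, of which 2 lie behind the B cell maps, CH12 cells with shLacZ and WT primary B cells, with 4 libraries each from 2 replicates of both fractions. The other 5 groups were not analysed here. CH12 is a clonal mouse B cell lymphoma line, here without a *Rif1* deletion, infected with a lentiviral shRNA against LacZ as the infection control and stimulated with IL4, CD40 and TGF beta per the labels. The primary B cells were activated splenic B cells of WT mice, without an shRNA. The growth protocol given for them in the labels is the one for CH12 cells. The map named for WT MEFs is tied by the labels to no sample of the series, and the study's summary of its datasets takes the MEF Repli-seq from elsewhere. Its libraries and replicates are unknown here, and the whole set rests on it. The authors merged the replicates ahead of the state calls, so each condition has 1 map, and neither a replicate error nor a test between conditions could be given. The maps hold no expression, so that the labelled cell types could not be checked against marker levels. Read depth is unknown from the maps, and Wilson 95% intervals cover counting over bins or runs only, since neighbouring bins are not independent.

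DNA is copied in a set order through S phase. Early-replicating domains are mostly rich in active genes and open chromatin, late-replicating domains are mostly gene-poor, and middle-replicating sequence lies between them. Domains can switch timing between cell types as genes and chromatin change during differentiation. Mature B cells express an immunoglobulin made from rearranged V, D and J segments, and after activation they exchange its constant region by class switch recombination.

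In all, 723 of the 21418 autosomal protein-coding genes of the GENCODE M1 annotation (3.38%) started in a primary B-early bin. Of 1468 annotated autosomal microRNA genes, 48 (3.27%) lay in such bins, a share close to that of protein-coding genes. RefSeq held a hairpin under the same symbol for 15 of the 48. The 7 shown here were chosen after their positions were seen, as microRNAs known from B cells or lying within a replication gene. Their sequences come from RefSeq (GRCm38.p6) with the seed, bases 2 to 8, in capitals, and all 7 hairpins equalled the mm9 reference at the annotated position.
miR-155-5p: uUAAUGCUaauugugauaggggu
miR-146a-5p: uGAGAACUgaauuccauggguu
miR-181a-5p: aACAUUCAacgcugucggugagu
miR-181b-5p: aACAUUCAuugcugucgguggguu
miR-25-3p: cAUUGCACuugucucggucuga
miR-93-5p: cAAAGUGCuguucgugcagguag
miR-106b-5p: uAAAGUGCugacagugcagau
*Mir155*, which is needed for normal germinal centre responses, lay at chr16:84714385-84714449 in a run of 460 kb, chr16:84420001-84880000. This run made up the whole of a primary B early domain without an early CH12 bin, and the nearest early CH12 bin was 6340 kb away. *Mir146*, the gene of miR-146a, which restrains NF-kappaB signalling, lay at chr11:43187899-43187963 in a run of 200 kb, with the nearest early CH12 bin 2460 kb away. *Mir181a-1* and *Mir181b-1* lay together in a run of 80 kb at chr1:139840001-139920000 that touched an early CH12 domain, and their products shared 1 seed. *Mir25*, *Mir93* and *Mir106b* lay within *Mcm7*, which encodes a subunit of the replicative helicase, in a run of 140 kb at chr5:138560001-138700000. The products of *Mir93* and *Mir106b* shared a seed, and that of *Mir25* had another. All 7 genes were middle-replicating in both CH12 cells and MEFs.

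Promoters of B cell genes that started in primary B-early bins are shown as the 250 bases before the outermost annotated start in mm9, 5′ to 3′ on the gene's strand, with each CG dinucleotide in capitals. *Mef2c*, *Cr2*, *Pik3r1* and *Fcer2a* are the members of 2 B cell gene lists. They are given as examples. RefSeq lists 3 promoters each for *Mef2c* and *Fcer2a*, 2 for *Pik3r1* and 1 for *Cr2*, of which 1 per gene shares at least 100 bases with the one shown.
Mef2c: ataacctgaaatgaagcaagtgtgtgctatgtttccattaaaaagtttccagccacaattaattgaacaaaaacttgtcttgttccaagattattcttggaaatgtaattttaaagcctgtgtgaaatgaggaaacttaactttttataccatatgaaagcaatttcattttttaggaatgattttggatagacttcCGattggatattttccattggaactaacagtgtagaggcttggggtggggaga
Cr2: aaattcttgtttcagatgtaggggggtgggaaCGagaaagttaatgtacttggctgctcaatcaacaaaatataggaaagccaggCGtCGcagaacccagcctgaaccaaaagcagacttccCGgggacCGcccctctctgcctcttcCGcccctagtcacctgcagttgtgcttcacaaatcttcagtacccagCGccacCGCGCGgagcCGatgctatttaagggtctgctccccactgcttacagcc
Pik3r1: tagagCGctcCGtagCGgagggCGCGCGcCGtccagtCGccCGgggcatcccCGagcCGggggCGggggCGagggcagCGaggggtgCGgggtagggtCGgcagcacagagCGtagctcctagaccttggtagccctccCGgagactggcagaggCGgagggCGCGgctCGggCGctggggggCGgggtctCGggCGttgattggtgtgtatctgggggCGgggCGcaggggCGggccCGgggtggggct
Fcer2a: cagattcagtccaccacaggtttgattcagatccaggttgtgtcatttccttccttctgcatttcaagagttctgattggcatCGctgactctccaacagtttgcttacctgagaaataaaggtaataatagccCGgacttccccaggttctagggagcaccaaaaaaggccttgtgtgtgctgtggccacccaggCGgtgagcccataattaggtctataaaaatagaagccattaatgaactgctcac
The *Mef2c* promoter shown, at chr13:83642783-83643032, held 1 CpG, and that of *Fcer2a*, the low-affinity IgE receptor CD23, at chr8:3694175-3694424 held 3. The promoter of *Cr2*, the complement receptor CD21, at chr1:197002910-197003159 held 11. *Pik3r1*, the regulatory subunit of phosphoinositide 3-kinase, had 30 at chr13:102538173-102538422, more than or as many as 93.9% of all autosomal protein-coding promoters. Low-CpG and CpG-rich promoters thus both lay in these bins. The CG dinucleotide reads the same on both strands, and 92.6% of all autosomal promoters of this length held at least 1, against 91.0% of the 723 in primary B-early bins.

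Among CH12 middle bins, the primary B-early bins were a minority. They made up 11.0% of the 31396 autosomal CH12 middle bins (Wilson 95% interval 10.7 to 11.4%). Of the 8446 CH12 middle bins that were early in primary B cells, they were 41.0% (39.9 to 42.0%), and the other 4987 bins were early in MEFs also. Early MEF bins made up 31.4% of the 21202 CH12 middle bins that were middle in primary B cells and 6.46% of the 1748 that were late there. In MEFs, 3286 of the primary B-early bins were middle and 173 (5.0%, 4.32 to 5.78%) were late. The step between primary B cells and MEFs was therefore mostly 1 state. Late MEF bins made up 2.05% of all CH12 middle bins early in primary B cells. They were 6.91% of those middle and 34.2% of those late in primary B cells.

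All 19 autosomes held primary B-early bins, with a mean share of 2.88% ± 0.994 (SD, n = 19 autosomes). Chromosomes 3 and 13 had the highest shares, 4.66% and 4.65%, and chromosomes 5 and 15 the lowest, 1.49% each. The bins late in MEFs were unevenly placed. Chromosome 13 held 30 of them, chromosome 3 held 27, chromosome 16 held 22 and chromosome 7 held 20, and 3 runs held 77 of the 173.

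**Figure D1:**
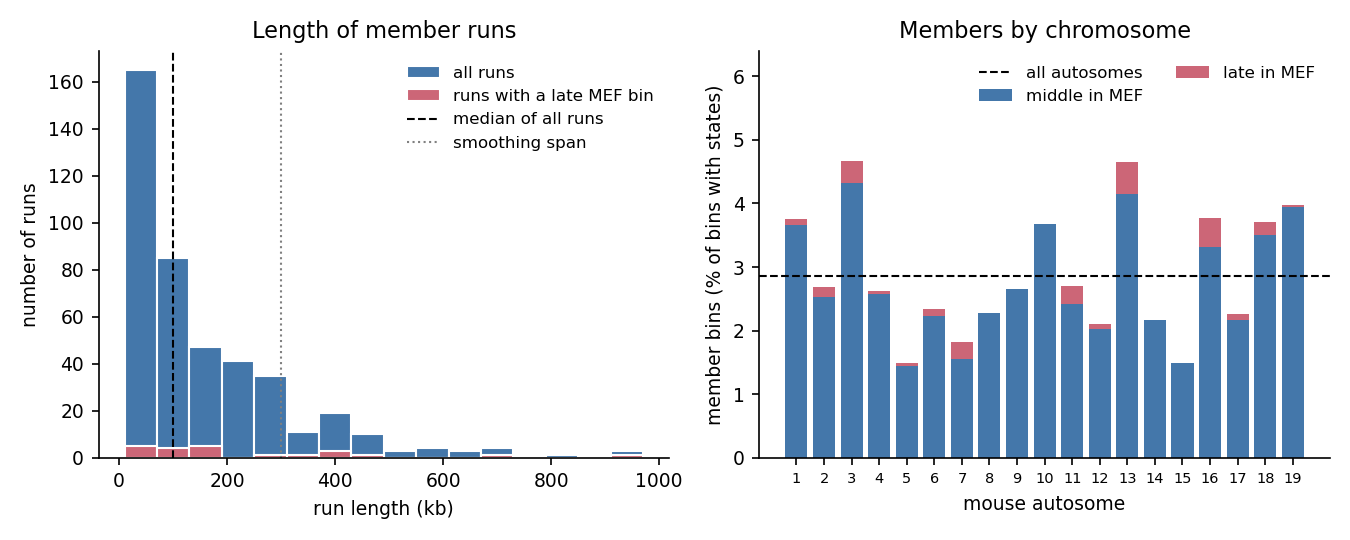
Left, number of runs of primary B-early bins by length in kb (classes of 60 kb), for all 431 runs and for the 22 with a late MEF bin, with the median of 100 kb and the 300 kb smoothing span marked. Right, primary B-early bins as a percentage of the bins with states on each autosome, split by MEF state, with the value of all autosomes (2.86%) as a dashed line. Most runs are shorter than the smoothing span, and chromosomes 3 and 13 stand highest.

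The runs were mostly short. Their median length was 100 kb (quartiles 40 and 220 kb), 67 were single bins, and the longest reached 940 kb. Runs shorter than 300 kb, the span over which the authors smoothed RT, made up 362 of the 431 (84.0%). The 69 longer ones held 1580 bins, 45.7% of all. Mean GC content varied from 36.2% to 55.0% between runs, with a median of 42.3%.

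The 8 longest runs held from 1 to 17 protein-coding starts. The run at chr1:178860001-179800000 (940 kb) held among others the starts of *Zfp238*, a zinc finger repressor, *Adss*, an enzyme of AMP synthesis, and 1700016C15Rik. It filled a primary B early domain from end to end and had no early CH12 bin within 320 kb. The run at chr3:86040001-86980000, also 940 kb, lay between early CH12 domains on both sides. It held *Mab21l2*, *Dclk2*, a doublecortin-like kinase, *Kirrel*, *Cd1d2*, and *Cd1d1*, which presents lipids to NKT cells. It also held 547 kb (98.0%) of the body of *Lrba*, a gene mutated in an inherited immunodeficiency, whose start lay in a bin early in both B cell maps. These runs are alike in length, but only the second had early CH12 sequence at its edges.

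The run at chr3:106180001-107100000 (920 kb) held 17 protein-coding starts and again filled a primary B early domain. They included *Cd53*, a tetraspanin of leukocytes, and the potassium channel genes *Kcna3*, *Kcna2* and *Kcna10*, of which *Kcna3* encodes the main voltage-gated channel of lymphocytes. The others were *Dennd2d*, *Dram2*, *Cept1*, *Olfr266*, *Cym*, *Prok1*, *Hbxip*, *Slc16a4*, BC051070, AI504432, 2010016I18Rik, 4933421E11Rik and A930002I21Rik. Late MEF bins made up 27 of its 46 bins. Genes of leukocytes and of other tissues thus stood side by side in it.

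The run at chr8:83760001-84580000 (820 kb) held 1 protein-coding start, *Inpp4b*, a phosphoinositide phosphatase, with 714 kb (91.2%) of its body. That was the most bases of any protein-coding gene in primary B-early bins, followed by *Lrba* and by *Rabgap1l* with 371 kb. The run at chr18:54820001-55540000 (720 kb) held *Zfp608*. The run at chr3:58520001-59240000 (720 kb) held *P2ry12*, *P2ry13* and *P2ry14*, receptors for extracellular nucleotides, with *Gpr171*, *Med12l* and others, among them *Igsf10*, *Clrn1* and *Gm10071*. The run at chr1:161840001-162520000 (680 kb) held *Tnn*, *Mrps14*, *Cacybp*, 4930562F07Rik and 2 genes named 4930523C07Rik, and the part of *Rabgap1l* given above.

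The run at chr13:83000001-83720000 (720 kb) held *Mef2c* as its only start. *Mef2c* encodes a transcription factor that B cells need for proliferation after antigen receptor signalling. Of its 36 bins, 30 were late in MEFs, the most of any run. The nearest early bin lay 8080 kb away in CH12 cells and 7620 kb away in MEFs. The start of *Mef2c* itself lay near the downstream edge, in a bin middle in MEFs, and 77.0 kb (47.0%) of the gene were inside the run.

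Immunoglobulin segments of all 3 loci lay in primary B-early bins, with 53 segment genes in 4 runs. They were looked at after their positions were seen. By annotated type, they were 21 of 355 autosomal V segments (5.92%) and 21 of 25 D segments (84.0%). They also held 9 of 88 J segments (10.2%) and 2 of 13 genes of the constant type (15.4%). The annotation has no separate type for T cell receptor segments, so these totals may include them. How many immunoglobulin V or J segments lay elsewhere is therefore not given by these shares. The annotation types the constant genes *Iglc2* and *Iglc3* as protein-coding, so these counts leave them out, although both lay in primary B-early bins. At the heavy chain locus, a run of 340 kb at chr12:114620001-114960000 held *Ighm*, the constant gene of IgM, 4 J segments, 21 of the 25 annotated D segments and 12 V segments. *Ighg1* and *Ighg2c*, further downstream, were early in all 3 maps. The run thus began where the early CH12 domain of the downstream constant genes ended, and it stopped at a late CH12 bin on the V side, where primary B cells were still early. In MEFs, 4 of its 17 bins were late and the others middle.

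At the kappa locus, *Igkc* and the 5 J segments *Igkj1* to *Igkj5* lay in a run of 60 kb at chr6:70660001-70720000, which touched an early CH12 domain. A second kappa run of 160 kb at chr6:69960001-70120000 held 6 V segments, from *Igkv1-35* to *Igkv8-28*, and all 8 of its bins were late in MEFs. At the lambda locus, a run of 420 kb at chr16:19040001-19460000 held *Iglv1*, *Iglv2* and *Iglv3* with *Iglc2* and *Iglc3*, and 8 of its 21 bins were late in MEFs. The authors kept unique alignments only, and the number of reads behind the bins of these similar segments is unknown here. B cells rearrange the segments of these loci. How much of the reference sequence of these runs, that of the heavy chain included, the CH12 and primary B cells still held is unknown here. Their states at these loci are therefore given as mapped, and a timing difference was not tested.

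Most genes of 9 of the 10 gene lists, those of B cells and of other cells alike, started in bins early in both B cell maps and so outside the primary B-early bins. Of 37 B cell transcription factor genes, 35 started in early primary B bins and 29 in bins early in both B cell maps, and 1, *Mef2c*, started in a primary B-early bin (2.70%, against 3.38% of all protein-coding genes). Counted by any overlap of the gene body, 4 did (10.8%, against 4.26% of all protein-coding genes, 913 of 21418). The other 3 were *Ebf1*, *Foxp1* and *Zbtb20*, which are long genes with only part of the body inside.

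*Ebf1*, which encodes a factor that specifies B cell identity, had 342 kb (87.4%) of its 391 kb in a run of 600 kb at chr11:44480001-45080000 that held no protein-coding start. Its start lay just upstream, in a bin that was middle in CH12 cells and early in primary B cells and MEFs. *Foxp1* had 180 kb (52.8%) inside, with a start early in both B cell maps and middle in MEFs. *Zbtb20* had 180 kb (23.5%) inside, with a start late in CH12 cells and middle in the other two.

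Of 51 genes of the B cell receptor, surface molecules and signalling, 3 started in primary B-early bins, *Cr2*, *Fcer2a* and *Pik3r1* (5.88%, against 3.38% of all protein-coding genes), and 6 overlapped them (11.8%, against 4.26%). *Cr2* lay wholly in a run of 240 kb at chr1:196960001-197195432 at the end of chromosome 1, which passed into late CH12 sequence. *Fcer2a* lay wholly in a run of 320 kb at chr8:3520001-3840000, with 7760 kb to the nearest early CH12 bin. *Pik3r1* started in a run of 120 kb at chr13:102520001-102640000 that touched an early CH12 domain, with 18.2 kb (20.8%) of the gene inside. *Bank1* (82.0% inside), *Prkcb* (45.7%) and *Plcg2* (43.1%) overlapped with their starts outside, in bins early in both B cell maps for *Bank1* and *Prkcb*, and in bins early in primary B cells and MEFs for *Plcg2*. The 51 genes were otherwise mostly early in both B cell maps, with 42 starts.

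Of 26 genes of class switching and the germinal centre, 1, *Rgs13*, started in a primary B-early bin. This share (3.85%) was close to the 3.38% of all protein-coding genes. *Rgs13*, a regulator of G protein signalling in germinal centre B cells, shared a run of 380 kb at chr1:145920001-146300000 with *Rgs1*. The run filled a primary B early domain, and the nearest early CH12 bin was 5520 kb away.

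**Figure D2:**
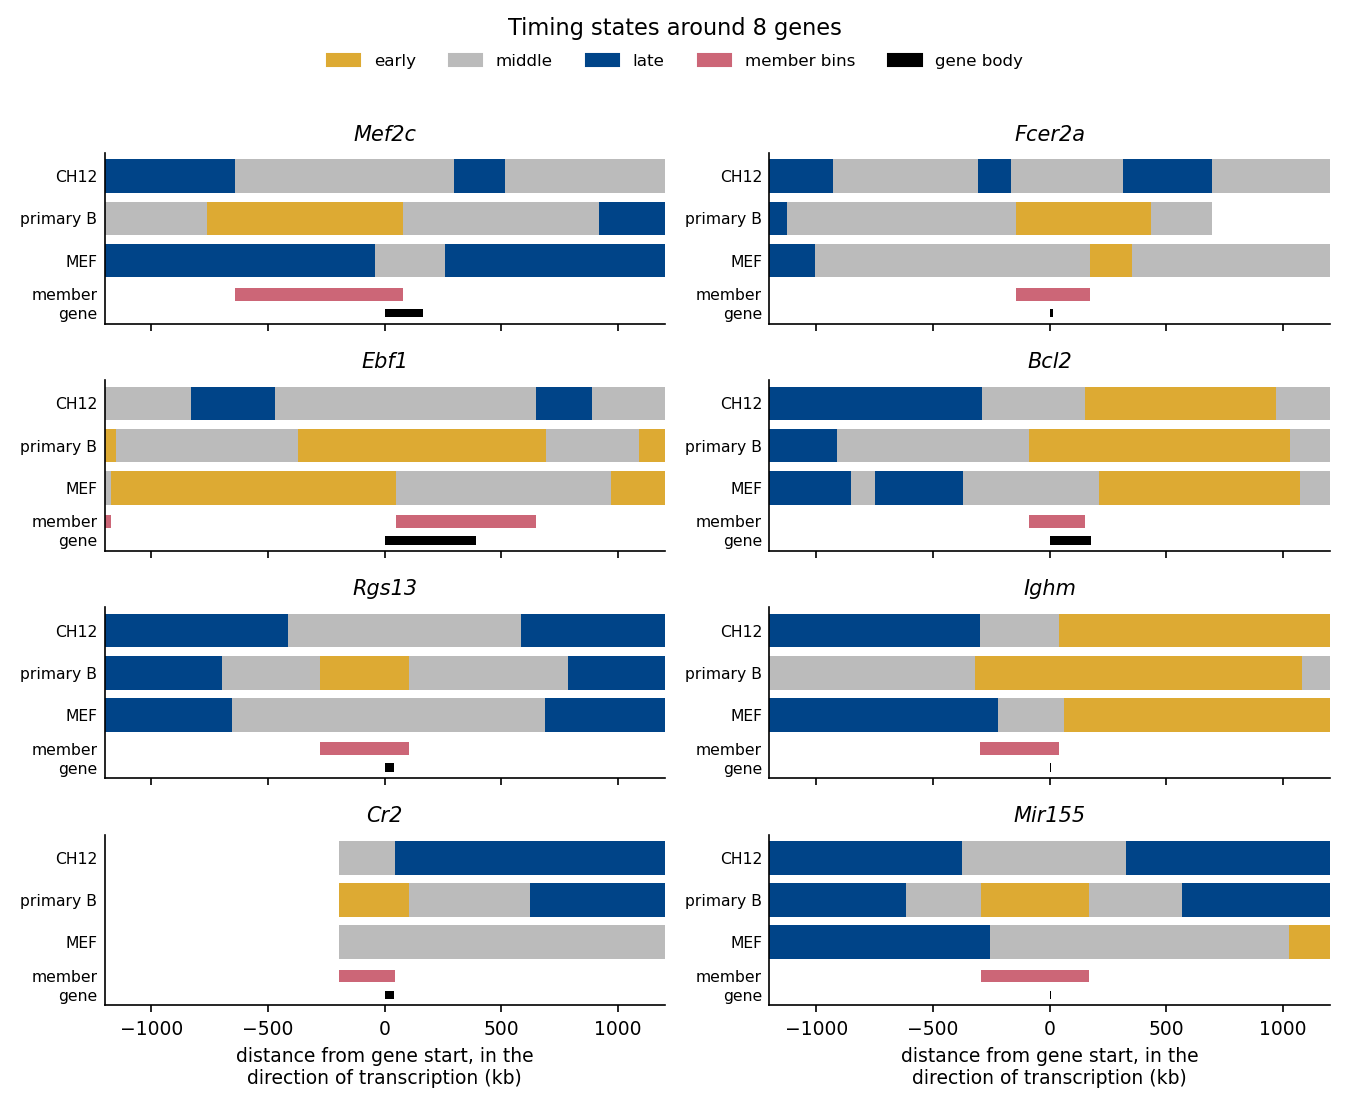
RT states in 20 kb bins within 1200 kb of the start of 8 genes, drawn in the direction of transcription, for CH12 cells, primary B cells and MEFs, with primary B-early bins in red and the gene body in black. White means no state or the end of the chromosome. The run ends at early CH12 sequence just downstream of *Ighm* and within the body of *Bcl2*, and has no early CH12 bin in view at *Mef2c*, *Ebf1*, *Rgs13*, *Cr2*, *Fcer2a* and *Mir155*.

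Counted by starts, cytokine and BCL2 family genes had the highest list shares, with small counts. By overlap, the BCL2 family list (13.6%) was followed by the list of the B cell receptor (11.8%), that of B cell transcription factors (10.8%) and that of cytokines (10.2%), against 4.26% of all protein-coding genes. Shares by overlap depend on gene length, which was not matched. *Bank1*, *Prkcb* and *Plcg2*, counted by overlap alone, were 273, 346 and 137 kb long, against a median of 15.5 kb for all protein-coding genes. Of 49 cytokine and receptor genes, 5 (10.2%, against 3.38%) started in primary B-early bins. *Il2* and *Il15*, T and NK cell growth factors, started in runs of 80 kb each. These runs held 4.88 kb (89.8%) of *Il2* and 27.1 kb (37.9%) of *Il15*. *Il12a*, a subunit of IL-12, lay in a run of 460 kb, *Il22* in one of 220 kb, and *Ifngr1*, a chain of the interferon gamma receptor, in one of 400 kb. The nearest early CH12 bin was 13960 kb away for *Il2* and 2340 kb away for *Il12a*, whereas the runs of *Il22* and *Ifngr1* touched one. Their distance to early CH12 sequence thus differed widely.

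Of 22 BCL2 family genes, 3 (13.6%, against 3.38% of all protein-coding genes) started in primary B-early bins. *Bcl2* and *Bcl2a1d* encode inhibitors of apoptosis, and *Pmaip1* encodes the pro-apoptotic protein NOXA. *Bcl2* had 151 kb (85.7%) of its 176 kb in a run of 240 kb at chr1:108460001-108700000 that touched an early CH12 domain, and *Bcl2a1d* lay in a run of 160 kb that also touched one. *Pmaip1* was the only protein-coding start of a run of 280 kb that filled a primary B early domain, 560 kb from early CH12 sequence.

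Of 35 genes of replication origins and the helicase, 2 started in primary B-early bins (5.71%, against 3.38% of all protein-coding genes). They were *Mcm7* and *Mcm8*, a helicase gene of recombination repair. *Mcm7* shared a run of 140 kb with 9 other protein-coding starts, 60 kb from early CH12 sequence, and *Mcm8* lay in a run of 60 kb that touched it. No gene of the lists for the NF-kappaB pathway (20 genes), T cell markers (29), myeloid markers (24) or fibroblast markers (36) started in a primary B-early bin, and of these only *Fap*, a fibroblast gene, overlapped them, with 61 kb. Starts in bins early in both B cell maps numbered 18 of the NF-kappaB genes, 21 of the T cell markers, 18 of the myeloid markers and 9 of the fibroblast markers.

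**Figure D3:**
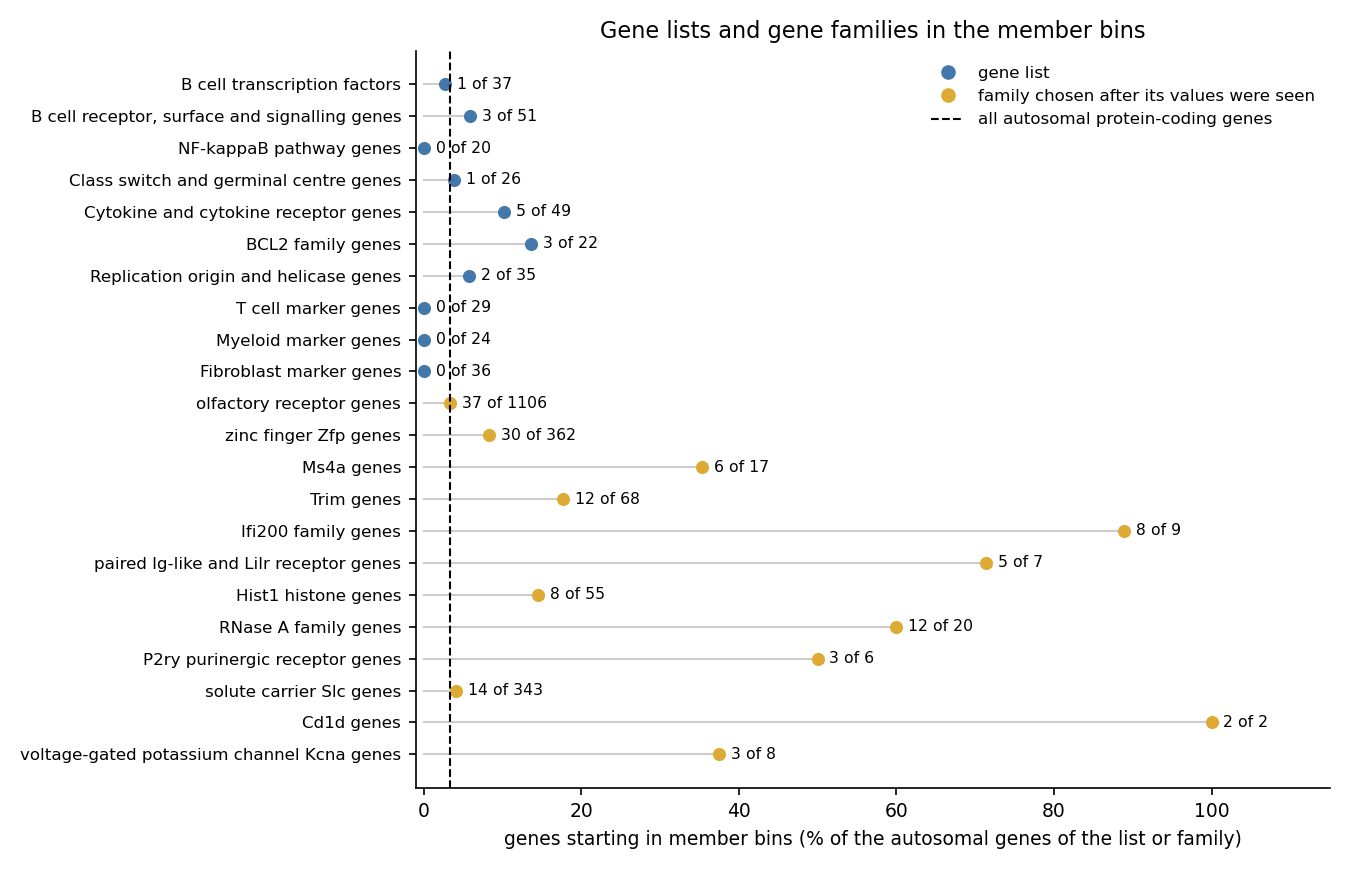
Percentage of the autosomal genes of each list or family that started in primary B-early bins, with the counts beside each point and all autosomal protein-coding genes (3.38%) as a dashed line. Most lists lie near the line with counts of 0 to 5, and most of the families, which were chosen after their values were seen, lie to its right, with olfactory receptor genes at 3.35%.

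Gene-rich runs held clusters of related genes, and these families were chosen after their values were seen, so their shares are given as a description only. The run with the most starts, 28, lay at chr14:51320001-51940000 and held all 12 RNase A family genes found in primary B-early bins, of 20 on the autosomes. The run at chr19:11520001-12100000 held 20 starts, among them 6 of 17 *Ms4a* genes. *Ms4a1*, the member of this family that encodes CD20, was not among the 6. The run at chr7:111240001-111640000 held 17 starts, 10 of them *Trim* genes of antiviral defence from *Trim6* to *Trim30a*, and all 20 of its bins were late in MEFs. The run at chr13:23840001-24260000 held 14 starts, of which 8 were *Hist1* histone genes and 4 were *Slc17a* transporter genes. Together with the run of *Cd53*, these are the 5 runs with the most protein-coding starts.

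Clusters of immune genes were found in other runs too. Of 9 Ifi200 family genes, which sense DNA and respond to interferon, 8 started in 2 runs of chromosome 1, and the run that held *Aim2* was wholly late in MEFs. Of 7 paired immunoglobulin-like and *Lilr* receptor genes, 5 started in 1 run of 460 kb at chr7:3660001-4120000. Zinc finger genes named *Zfp* had 30 of 362 starts (8.29%) in 18 runs, of which 9 lay in 1 run of 260 kb on chromosome 13. Olfactory receptor genes had 37 of 1106 (3.35%) and solute carrier genes 14 of 343 (4.08%), close to the share of all protein-coding genes. Members of a cluster lie side by side in a few runs and are not independent observations.

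Of the 723 genes that started in primary B-early bins, 581 lay wholly inside them. Counting a gene by at least 50% of its body gave 712. The starts fell in 260 of the runs, and 171 runs held none. In all, 53 primary B early domains were made up wholly of primary B-early bins. Besides those of the longest runs, they held *Tet2*, which oxidises methylcytosine, *Ezh2*, the methyltransferase of H3K27 that germinal centre B cells need, and *Igj*, the joining chain of IgM and IgA. These 3 genes were chosen after their values were seen.

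The runs differed in what ended them. Of 862 run edges, 423 (49.1%) were places where primary B cells alone changed, from early to middle. At 245 edges (28.4%) CH12 cells alone became early, at 135 (15.7%) MEFs alone became early, and at 35 (4.06%) CH12 cells alone became late. More than 1 map changed at 22 edges, and 2 had no state beyond them. At least 1 side of 240 runs (55.7%, 51.0 to 60.3%) touched an early CH12 domain, with both sides at 15 of them, and 147 runs (34.1%) touched an early MEF domain. Among the 69 runs of at least 300 kb, the share that touched an early CH12 domain was 31.9%.

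The distance to early CH12 sequence lay between those of the other CH12 middle bins. The median was 320 kb for primary B-early bins, 220 kb for CH12 middle bins early in both primary B cells and MEFs, and 620 kb for CH12 middle bins early in neither. A gap of under 300 kb was found for 48.6% of the primary B-early bins. The primary B early domain around the bin held no early CH12 bin for 1545 of them (44.7%, 43.0 to 46.3%), against 34.8% of the bins early in both primary B cells and MEFs. Such domains without an early CH12 bin numbered 112 of the 330 that held a primary B-early bin, with a median length of 390 kb against 1100 kb for the others. In kind, the CH12 middle domains that held primary B-early bins were like all CH12 middle domains. Of the primary B-early bins, 48.8% lay in a CH12 middle domain between an early and a late domain, and 48.6% of all CH12 middle bins did so. The share between a pair of late domains was 31.5%, against 33.2% of all CH12 middle bins.

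**Figure D4:**
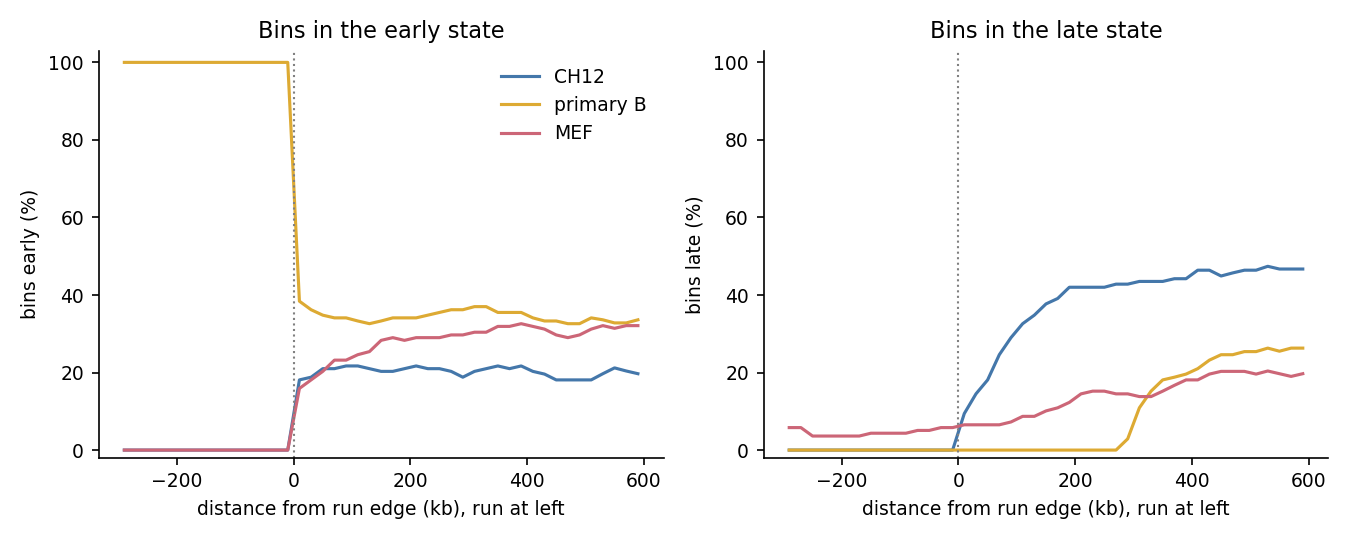
Percentage of bins early (left) and late (right) in each map by distance in kb from the edges of the 69 runs of at least 300 kb, with the run on the left of the dotted line. The early states inside the run are fixed by the rule. Outside, the late share rises at once in CH12 cells and only beyond 270 kb in primary B cells. Early and late domains never touch in a map, so a middle stretch must come ahead of the late state in primary B cells. The rule does not fix its length, and the contrast was not tested.

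Beyond the edges of the 69 runs of at least 300 kb, the B cell maps diverged. In the first bin outside, 18.1% of the edges were early and 9.42% late in CH12 cells, and 38.4% were early and none late in primary B cells. At 190 kb outside, 42.0% were late in CH12 cells, and still none in primary B cells. Primary B cells were late at 2.90% of the edges at 290 kb and at 26.3% at 590 kb, where CH12 cells were late at 46.7%. In each map early and late domains never touched. A primary B early domain thus passes through a middle domain before a late one, whereas a CH12 middle domain can touch a late one. The rule and the segmentation together therefore place a middle stretch ahead of the late states of primary B cells. They do not fix its length, and the contrast was not tested. Early MEF bins rose from 15.9% in the first bin to 32.1% at 590 kb.

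In base composition the primary B-early bins were closer to the CH12 middle bins early in neither other map, and in gene density to those early in both. GC content was 42.2% in primary B-early bins, 44.3% in the bins early in primary B cells and MEFs, 42.1% in the bins early in neither, and 41.9% in all bins. Per autosome it was 42.4% ± 0.737 (SD, n = 19), lower than in the bins early in both on 18 of the 19 autosomes, and higher than in the bins early in neither on 12. CpG density was 8.77 per kb, against 10.9 and 8.45. It was lower than in the bins early in both on all 19 autosomes, and higher than in the bins early in neither on 14. Neighbouring bins share sequence and the sets were defined by RT, so these counts of autosomes are given without a test.

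Protein-coding gene starts numbered 10.5 per Mb in primary B-early bins, 12.2 per Mb in the bins early in both, and 7.85 per Mb in the bins early in neither. On the autosomes the density was higher than in the bins early in neither on 16 of 19, and lower than in the bins early in both on 14. The spread between autosomes was wide, 11.2 per Mb ± 4.28 (SD, n = 19) as a mean of autosomes. No protein-coding gene overlapped 38.9% of the primary B-early bins (37.3 to 40.5%), against 34.1% and 50.2% of the other sets. Median gene length was 17.7 kb, against 24.0 kb and 15.2 kb. Their promoters held a median of 7 CpG in 250 bases, against 12 and 5, and 41.5% held at least 10, against 59.1% and 37.3%.

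**Figure D5:**
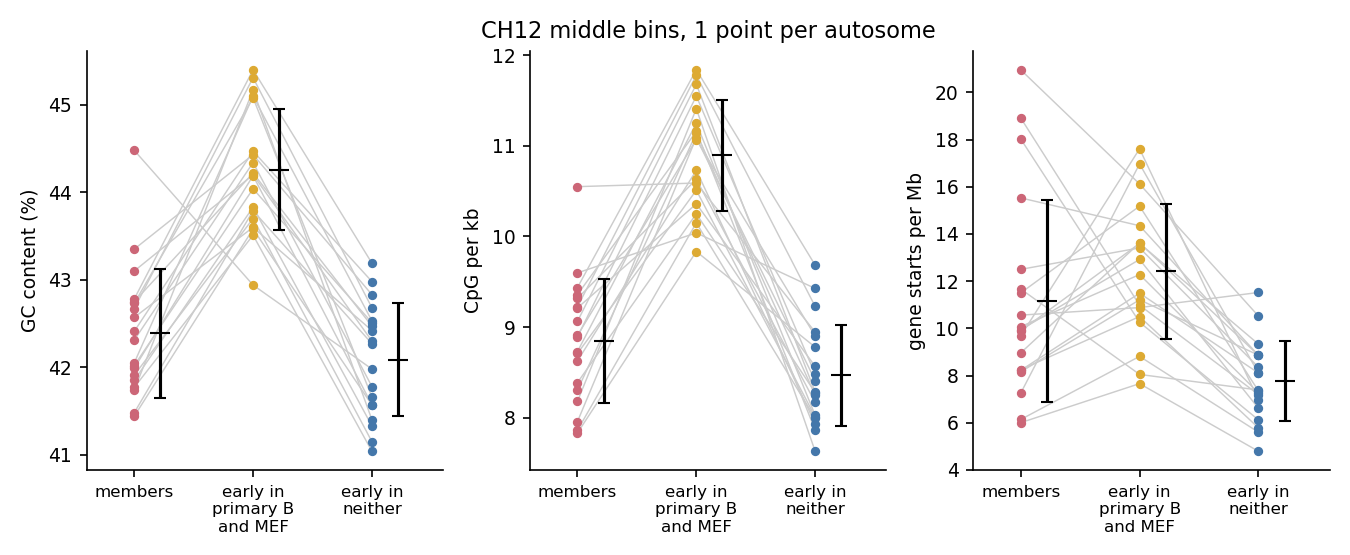
GC content (%), CpG per kb and protein-coding gene starts per Mb of 3 sets of CH12 middle bins, with 1 point per autosome (n = 19), grey lines joining the sets of an autosome, and black bars for mean ± SD. The vertical axes do not start at 0. Primary B-early bins sit below the bins early in primary B cells and MEFs in CpG density on every autosome, and above the bins early in neither in gene starts on 16.

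The bins late in MEFs, which are a full step from early to late between primary B cells and MEFs, formed a small subset. They fell in 22 runs, 12 of them late throughout. The runs of *Mef2c*, of *Cd53* and the *Kcna* genes, and of the *Trim* genes held the most. Their GC content was 39.4%, below the 42.2% of all primary B-early bins.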

How the data were processed

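The Repli-seq libraries used were those of CH12 cells with shLacZ and of WT primary B cells, 4 per group, grouped by sample titles. Per the study's methods and the submitters' processing notes, reads were trimmed (Trim Galore 0.6.5), aligned to mm9 with BWA 0.7.17 and filtered for unique alignments with SAMtools 1.9. Replicates were merged, duplicates removed, and log2 ratios of early to late reads taken per 20 kb window (deepTools), loess-smoothed over 300 kb and segmented by a hidden Markov model. The maps deposited by the authors hold, per domain, a state number (0, 1 or 2), which is a category without a unit, and no RT value. Merging removes the replicate spread, and smoothing blurs edges. Which RT values divide the states is not known here and may differ between maps, and the maps do not give the depth of a sample.

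In each map 1 pair of states never touched. The state between them was named middle, and the one of the pair with more gene starts early. This gave early to 2 in both B cell maps and to 0 in the map named for MEFs, which is tied to no sample. Bins were placed on the NCBIM37 (mm9) reference and genes taken from GENCODE M1, placed by their start. Members, gene lists and families were chosen with earlier results of these data known. Genes named are all starts of the 8 longest runs, list genes in members, the 5 runs with most starts and the 3 genes with most bases inside, with any other marked in the text. A few items it covers are not reported here. No test between conditions was made. Shares have Wilson 95% intervals. Alternatives covered the MEF state, unknown bases, boundary distance, run length, the first 3 Mb, run joining, gene placement and gene type. The functions recovered 6 of 6 known values on copies of the real maps, with the primary B-early bins removed and 200 runs that meet the rule planted. This checks the code only. Python 3.11.15, numpy 2.4.6, pandas 2.3.3 and matplotlib 3.10.9 were used.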

Additional observations from a re-analysis of the deposited data

How the results depend on the processing

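No paired analysis was possible because each condition has 1 map of merged replicates, and for the same reason no replicate could be left out. Of 48 alternative values for 10 results, 32 stayed within the counting interval, within 1.5 times the count or within the spread between autosomes, and 16 moved. Most of these follow from keeping fewer bins or longer runs. With late MEF bins alone, 173 bins were left, 0.551% of the CH12 middle bins, with a GC content of 39.4%. With middle MEF bins alone, the share of CH12 middle bins was 10.5%. Leaving out bins closer than 100 kb to a boundary of the CH12 or primary B map kept 1195 bins, 8.24% of the CH12 middle bins that remained. Runs of at least 100 kb numbered 232 (median 220 kb), of which 50.4% touched an early CH12 domain. Runs of at least 300 kb numbered 69 (median 420 kb) and held 1580 bins. Of these runs 31.9% touched an early CH12 domain, against 55.7% of all runs. Of their bins, 62.8% lay in primary B early domains without an early CH12 bin and 6.14% were late in MEFs. Counting all gene types gave 1166 starts.

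Precision is limited by having 1 map per condition, by states without RT values, and by the smoothing span, which is longer than 362 of the 431 runs. How far RT itself differs between bins that are 1 state apart is unknown here.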

Other observations

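Chromosome X was outside the set, which covers autosomes. By the same states, 391 of 8333 X bins would have been primary B-early, in 38 runs. As 0 X bins were early in MEFs, the MEF condition did not narrow the choice on X, and these bins were not used in any comparison.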
